A study of Rattus norvegicus with 3 samples.

Results

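Growth hormone reaches the liver in pulses and binds its receptor, which activates the kinase JAK2. JAK2 then phosphorylates STAT5 proteins, which enter the nucleus and raise the transcription of genes such as Igf1 and of the inhibitors Cish and Socs2, which damp the same signal. Prolactin uses a related receptor and the same kinase, and the pattern of growth hormone pulses is known to set much of the sex bias of rat liver. The 7 genes described here are the receptors Ghr and Prlr, the kinase Jak2, the transcription factor Stat5a, the secreted growth factor Igf1, and the inhibitors Cish and Socs2. They were found by symbol, former symbol or description among 5653 genes on the array, and were read by 8 of 5690 probes, because Stat5a had 2. Socs2 carried its former symbol Cish2, and the second Stat5a probe, described as a spliced form called STAT5a2, carried no symbol.

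Liver RNA of male rats of 2 strains, the spontaneously hypertensive rat (SHR), an inbred model of high blood pressure, and the normotensive Wistar Kyoto rat (WKY), was hybridised to 3 spotted 2-colour arrays. One array set SHR aged 1 month against pooled WKY of that age, the next did so at 3 months, and the last set both ages of SHR against each other. The labels name no treatment, and the sources used here do not say how many animals gave each RNA. Over the 3 arrays 5614 to 5649 genes had a ratio, and the median raw intensity of a spot was 2405 to 3460 in the first and 1448 to 2270 in the second column of the files. Each comparison rests on 1 array with no dye swap, so no test was possible, and a difference in dye at one probe cannot be told apart from a difference between the RNAs. In whole liver, fewer cells of a type and less RNA per cell cannot be told apart either.

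Each ratio below is the log2 of the second over the first intensity column of a file, after background correction and loess, a curve that removes the trend of the ratio with brightness. On both strain arrays a positive value means higher in SHR. For the SHR age array, the header of the second column names the 3-month animals. The labels, however, put Alexa647, which marks SHR in both strain comparisons, on the 1-month animals there. No source used here says which dye the second column holds. Values of this array are given in the direction of the headers, and every sign would turn if the columns were named the other way round. Each probe was printed on 2 spots, whose log2 ratios differed with a pooled SD of 0.057 on the 1-month array, 0.047 on the 3-month array and 0.054 on the SHR age array. This SD covers printing and scanning of 1 hybridisation and nothing of the spread between animals. Genes at least 1.5-fold apart, a log2 ratio of at least 0.585 in size, were counted.

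Cish, the member furthest from 0 on both strain arrays, is a classical STAT5 target, and its promoter is shown because it holds the consensus to which STAT5 binds. The RefSeq promoter on GRCr8, plus strand, is chr8:116850719-116851018, from 250 bases before to 50 bases after the annotated start. Capitals mark each match to TTCNNNGAA, which reads the same on both strands.
Cish promoter: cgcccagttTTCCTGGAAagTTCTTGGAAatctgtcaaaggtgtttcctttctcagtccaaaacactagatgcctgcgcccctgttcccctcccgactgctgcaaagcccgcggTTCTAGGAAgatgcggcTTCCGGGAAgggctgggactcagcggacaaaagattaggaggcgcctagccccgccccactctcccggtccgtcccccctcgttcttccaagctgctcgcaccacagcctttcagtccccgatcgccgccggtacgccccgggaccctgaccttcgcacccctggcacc
The 4 matches, TTCCTGGAA, TTCTTGGAA, TTCTAGGAA and TTCCGGGAA, began 241, 230, 136 and 119 bases before the start and did not overlap. Of 33469 rat promoters of this length, 2970 (8.87%) held at least 1 match and 2 held 4, the most found in any. Promoters were listed for 6 of the 7 members, 7 windows in all, and besides Cish only 1 of the 2 Prlr windows held a match, TTCTAGGAA. A match is a run of letters and not a shown binding site.

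Ghr, the growth hormone receptor, had a ratio below 1.5-fold on every array. Its raw intensity averaged 578 in WKY and 348 in SHR at 1 month, and 660 and 429 at 3 months. In the SHR age comparison it was 484 in the column named for 1 month and 235 in that named for 3 months. The second column was the dimmer for most genes, so these raw gaps cannot be read as strain differences. After loess the log2 ratios were 0.18, 0.12 and 0.00 on the 1-month, 3-month and SHR age arrays. With median centring the sign turned at 1 month, to -0.21, and the age ratio was -0.37.

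Prlr, the prolactin receptor, was past 1.5-fold on the SHR age array and on neither strain array. Raw intensity was 7361 in WKY and 5282 in SHR at 1 month, and 11493 in WKY and 6275 in SHR at 3 months. The columns of the SHR age array read 8059 and 3149. The log2 ratios were -0.05 and -0.41 on the strain arrays, and -0.78 on the SHR age array, where 129 of 5649 genes had a lower value. Over 14 alternative settings the age ratio stayed between -0.78 and -0.70, the narrowest range of any member ratio past 1.5-fold. The 3-month ratio ran from -0.46 to -0.41, under 1.5-fold in all of them.

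**Figure D1:**
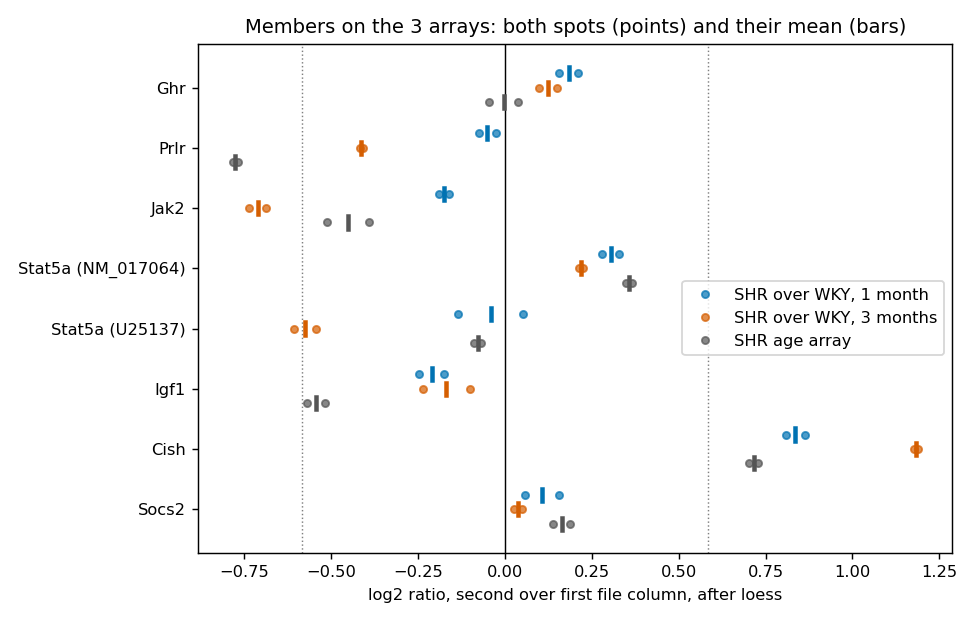
Log2 ratios (x axis, second over first file column) of the 8 probes of the 7 members on the 3 arrays; points are the 2 spots of a probe, bars their mean, and dotted lines mark 1.5-fold. Cish lies past 1.5-fold on all 3 arrays, Jak2 at 3 months and Prlr on the SHR age array, and the Stat5a probes stand on opposite sides of 0 at 3 months.

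Jak2, the kinase bound to both receptors, was past 1.5-fold at 3 months, with the lowest member ratio there in the setting reported. WKY read 11289 and SHR 7910 at 1 month, WKY 15169 and SHR 6937 at 3 months, and the columns of the SHR age array 13020 and 7113. These gave log2 ratios of -0.18, -0.71 and -0.45, and at 3 months only 35 of 5614 genes had a lower value. Jak2 was printed in a subgrid whose spots of like brightness, within 1 log2 unit, also lay low, with medians of -0.22, -0.20 and -0.29 on the 3 arrays. With loess fitted within each subgrid the Jak2 ratios were 0.04, -0.53 and -0.16. The authors' log2 values gave 0.06, -0.47 and -0.10. So the 1-month sign changed and the 3-month ratio fell under 1.5-fold with these settings, while it kept its sign in all 14. The filter and probe settings among them could not move a Jak2 ratio. The spliced form of Stat5a was lower than Jak2 with subgrid loess, at -0.64, and with the authors' log2 values and net intensities, at -0.58 in both.

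Stat5a, one of a pair of closely related STAT5 genes, gave a different answer with each of its probes. The RefSeq probe read 4813 in WKY and 4246 in SHR at 1 month, and 5131 and 4066 at 3 months, which after loess gave 0.30 and 0.22. The probe of the spliced form read 22414 and 21360 at 1 month, and 21895 and 12500 at 3 months, which gave -0.04 and -0.58. In the SHR age comparison the first probe had 0.36 and the second -0.08. At 3 months these values differ by far more than the spread between spots, whose SD was 0.008 for the first probe and 0.044 for the second. At 1 month the spots of the second probe read 18288 and 24432 in SHR, and their log2 ratios had an SD of 0.13. In multiples of the median net intensity of the channel, the second probe read 5.93 in SHR of 3 months on the 3-month array. The second column of the SHR age array, named for the same RNA, read 11.2. The former over the latter was 0.528, with 688 of 700 probes of like brightness higher. Were those columns named the wrong way round, the ratio would be 0.745, with 682 of 700 higher. The second probe was past 1.5-fold at 3 months in 2 of 14 settings, at -0.64 with subgrid loess and -0.61 with the first spot only. Probe sequences are not in the files, so which transcripts each reads, and whether either also binds the neighbouring gene Stat5b, was not tested. Stat5b itself had log2 ratios of -0.11, 0.02 and 0.10.

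Igf1, the growth factor that carries much of the effect of growth hormone on body growth, showed small strain ratios. Its raw intensity was 8713 in WKY and 5684 in SHR at 1 month, and 10671 and 6953 at 3 months. After loess this gave -0.21 and -0.17. The SHR age array read 6902 and 3128 in its columns, a log2 ratio of -0.54, or 1.46-fold, short of the threshold in all 14 settings. Igf1 lay below 0 on every array and in every setting, with strain ratios between -0.25 and -0.10. In multiples of the channel median, before loess, it read 3.13 in WKY and 3.29 in SHR on the 3-month array. The second column of the SHR age array, named for the same SHR RNA, read 2.20. The former SHR value over the latter was 1.49-fold, with 18 of 658 probes of like brightness higher. Were those columns named the wrong way round, the ratio would be 1.13-fold, with 287 of 658 higher.

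Cish, which binds activated receptors and blocks STAT5, had the highest ratio of all genes on both strain arrays. At 1 month its spots read 20218 and 19719 in WKY and 38322 and 38739 in SHR. At 3 months they read 14538 and 13950 in WKY and 31471 and 29830 in SHR. The raw spots of each column did not overlap those of the other, which also held for Ghr, Prlr, Jak2, Igf1 and Socs2. The share of all probes for which this held was not counted, so it sets no member apart. Cish was brighter in the second column, where most genes were dimmer. At the brightness of Cish, however, the trend that loess removed was near 0, at 0.11 at 1 month and -0.09 at 3 months. The log2 ratio was 0.84 at 1 month, a 1.79-fold difference, with 0 of 5647 genes higher, and 1.18 at 3 months, 2.27-fold, with 0 of 5614 genes higher. Among genes within 0.5 log2 units of its brightness, 731 at 1 month and 686 at 3 months, every one lay lower, and their medians were -0.05 at both ages.

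On the SHR age array Cish read 17807 and 18374 in the first column and 29795 and 30598 in the second, a log2 ratio of 0.72 with 48 of 5649 genes higher. Its second column was thus the brighter on all 3 arrays, whichever RNA it held. The same SHR RNA of 1 month, if the headers name it rightly, was in the second column of the 1-month array and in the first of the SHR age array. Expressed as multiples of the median net intensity of its channel, before loess, Cish stood at 17.3 in the former and at 7.64 in the latter, a 2.27-fold gap for RNA of one name. Only 1 of 732 probes of like brightness had a larger gap, and their median was 1.30. Had the columns of the SHR age array been named the wrong way round, the RNA read in both columns would be SHR of 3 months, at 14.6 and 7.64, a gap of 1.91-fold against a median of 1.42, with 42 of 732 larger. Between arrays with no change of column, Cish in the RNA named SHR of 3 months was 1.48-fold higher on the SHR age array than on the 3-month array, against a median of 1.17.

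Within the first column alone, Cish stood at 5.93 in WKY of 1 month, 4.19 in WKY of 3 months and 7.64 in SHR of 1 month. SHR over WKY at 1 month was then 1.29-fold, where the median of 732 probes of like brightness was 1.21 and 243 lay higher. With the SHR age columns turned, the same 7.64 would be SHR of 3 months, 1.82-fold over WKY of 3 months in the first column, where the median was 1.21 and 5 of 732 lay higher. The same-column strain gap of Cish thus depended on which age that column held. The second column held only SHR, at 17.3, 14.6 and 21.5. The high Cish ratio of SHR over WKY and a brighter reading of this probe in the second column cannot be told apart on the strain arrays. The sources used here do not say whether the SHR RNA of one name was one preparation on both arrays.

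**Figure D2:**
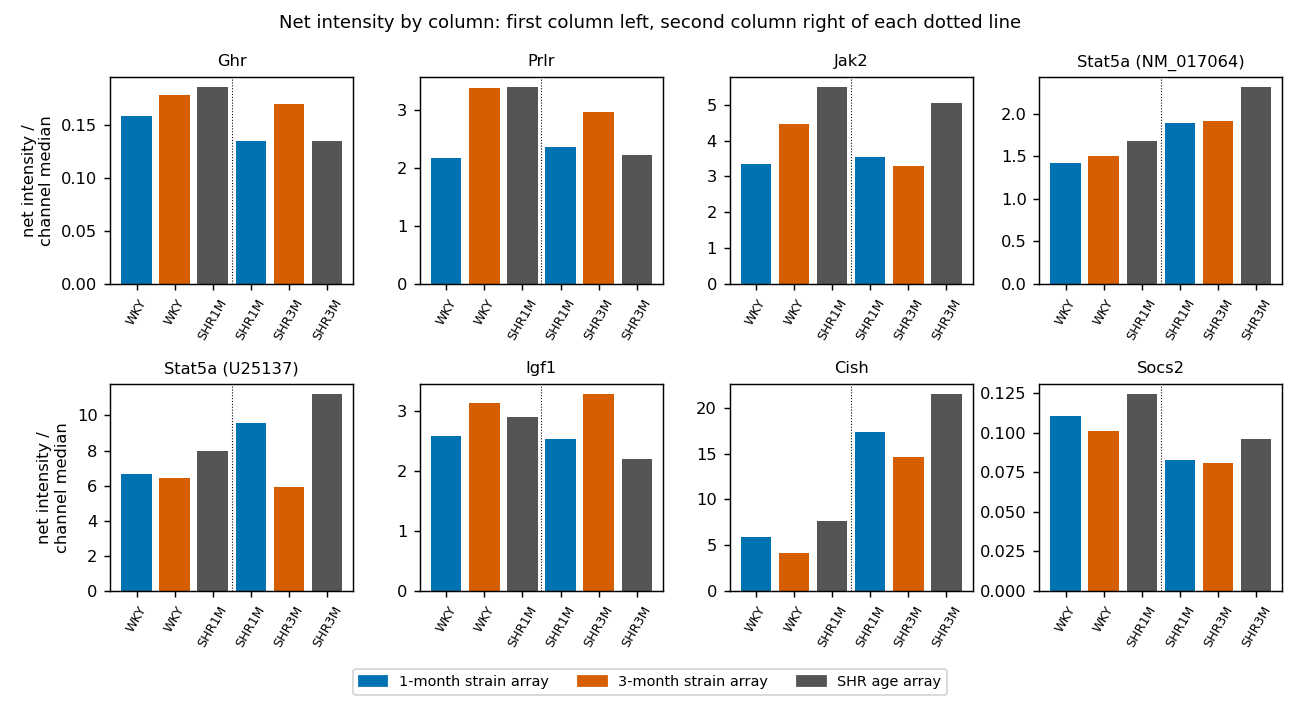
Net intensity of each member probe (y axis, multiples of the median gene spot of that channel, before loess, mean of 2 spots) by file column and named RNA; the first column of each array stands left of the dotted line and the second right. For Cish the second columns read 17.3, 14.6 and 21.5 and the first columns 5.93, 4.19 and 7.64, so every second column lies above every first. In the headers' naming SHR1M reads 17.3 and 7.64; with the SHR age columns turned, SHR3M would read 14.6 and 7.64 and SHR1M 17.3 and 21.5.

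Prlr and Jak2 can be read in the same way, first in the headers' naming. In the first column Prlr stood at 2.18 in WKY of 1 month, 3.38 in WKY of 3 months and 3.39 in SHR of 1 month, and in the second at 2.35 and 2.97 in SHR of 1 and 3 months on the strain arrays and 2.22 in SHR of 3 months on the SHR age array. WKY of 3 months over WKY of 1 month was thus 1.55-fold for Prlr, against a median of 1.02 for probes of like brightness, with 21 of 659 higher. SHR of 3 months over SHR of 1 month on the strain arrays was 1.26-fold for Prlr. This was opposite in direction to its direct age ratio as the headers name it, and alike if its columns are turned. In the same columns Cish at 0.842-fold, Igf1 at 1.30-fold and Socs2 at 0.978-fold also went against their direct age ratios of 0.72, -0.54 and 0.16. Jak2 and the Stat5a probes, at 1.01-fold and 0.618-fold, kept the direction of theirs, and the direct ratio of Ghr was near 0. With the columns turned, Prlr in the first column would be 3.39 in SHR and 3.38 in WKY of 3 months, 1.01-fold, where the median was 1.04. For Jak2 the first columns read 3.35, 4.46 and 5.49 and the second columns 3.54, 3.28 and 5.05. WKY of 3 months over 1 month was 1.33-fold for Jak2, and SHR of 3 months over 1 month on the strain arrays 0.927-fold. In the headers' naming, SHR of 1 month read 0.694-fold for Prlr and 0.644-fold for Jak2 in the second over the first column. Of probes of like brightness, 620 of 659 and 663 of 675 were higher. In the first column SHR over WKY at 1 month was 1.56-fold for Prlr and 1.64-fold for Jak2, with 28 of 659 and 24 of 675 higher. Turned, SHR over WKY of 3 months in the first column would be 1.23-fold for Jak2, against a median of 1.06. The SHR RNA of 3 months would then read 0.597-fold for Jak2 and 0.874-fold for Prlr in the second over the first column. Of probes of like brightness, 657 of 674 and 501 of 658 were higher. The second columns named for SHR of 3 months also differed. On the 3-month over the SHR age array Jak2 was 0.650-fold and Prlr 1.34-fold, with 644 of 674 and 47 of 658 higher. These values compare channels of different arrays and carry the differences between hybridisations.

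Socs2, which tempers growth hormone receptor signalling and, when lost in mice, gives oversized animals, did not share the high ratio of Cish. It read 415 in WKY and 234 in SHR at 1 month, 381 and 216 at 3 months, and 334 and 180 in the columns of the SHR age array. The log2 ratios were 0.11, 0.04 and 0.16. Socs2 was the dimmest member on every array. Over the 14 alternative settings its ratio ran from -0.32 to 0.21 at 1 month and from 0.02 to 0.29 at 3 months. On the SHR age array it ran from -0.23 to 0.30. The 3-month array held 459 spots of bright local background, and with the background model fitted without such spots the Socs2 ratio at 3 months was 0.14 and that of Ghr 0.23.

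**Figure D3:**
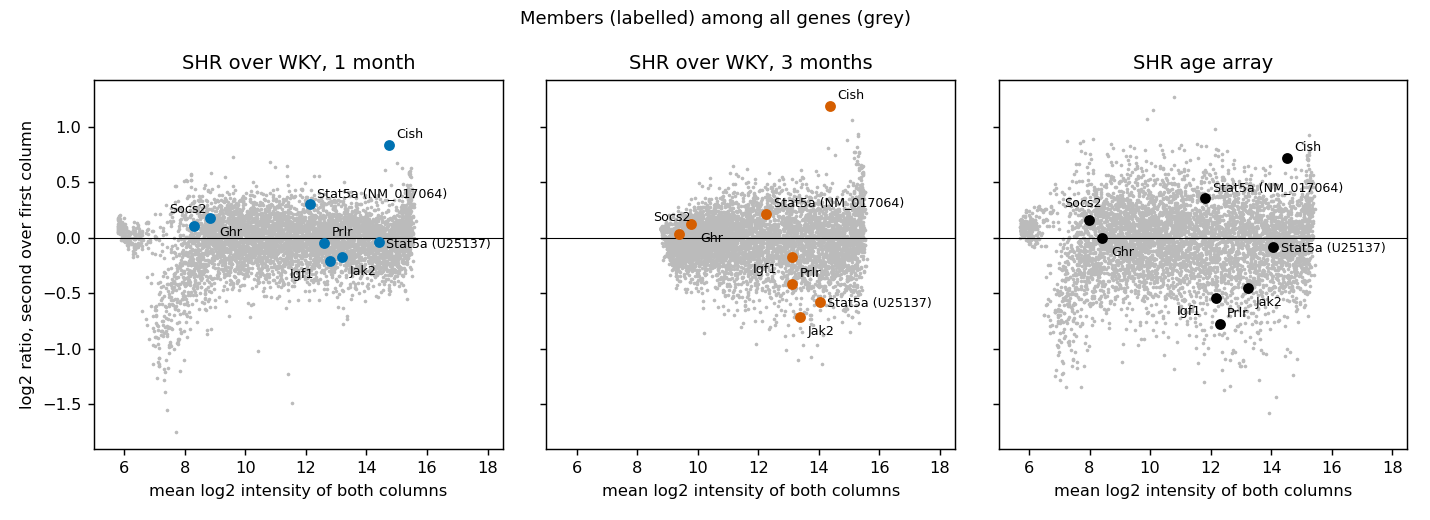
Log2 ratio (y axis) against mean log2 intensity of both columns (x axis) for all genes (grey) and the member probes (labelled) on the 3 arrays. Cish lies above the other genes of like brightness on both strain arrays, and Jak2, Prlr and the Stat5a probe U25137 lie in the lower part at 3 months.

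On each array 1 or 2 of the 7 members stood past 1.5-fold. This was a larger share than of all genes, in members chosen with earlier results of these data known. There was 1 of 7 at 1 month, Cish, where 2.62% of all genes did, and 2 of 7 at 3 months, Cish above and Jak2 below, where 2.08% did. In the SHR age comparison 2 of 7, Cish above and Prlr below, were past it, where 7.47% of all genes were. The median log2 ratio of the 7 was -0.04, -0.17 and -0.08 on the 3 arrays, beside -0.01, -0.01 and -0.01 for all genes, and 3, 3 and 2 members lay above 0. With so few members and no replicate these counts describe 3 hybridisations. At 1 month the median changed sign when Stat5a was taken by its RefSeq probe, to 0.11, and the 3-month median went to 0.04.

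The 3-month minus 1-month difference in strain ratio, in which a dye effect of equal size on both arrays cancels, was below 1.5-fold for all 7 members, where 2.83% of all genes were past it. Jak2 had -0.54, and Stat5a -0.53 by its brighter probe and -0.09 by the other. Stat5a ran from -0.85 to -0.09 over the alternatives and was past 1.5-fold in 2, at -0.85 with median centring and -0.60 with the second spot only. Prlr had -0.36 and Cish 0.35. Ghr, Igf1 and Socs2 had -0.06, 0.04 and -0.07, smaller than 0.074, the SD of a difference between single spots of both arrays. The values compared are means of 2 spots, whose SD is smaller than that. The dim genes Ghr and Socs2 moved to 0.31 and 0.50 with median centring. For Cish the difference was 0.00 with median centring, where both strain ratios were 1.46. For Jak2 it ran from -0.71 with median centring, where it was past 1.5-fold, to -0.52.

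**Figure D4:**
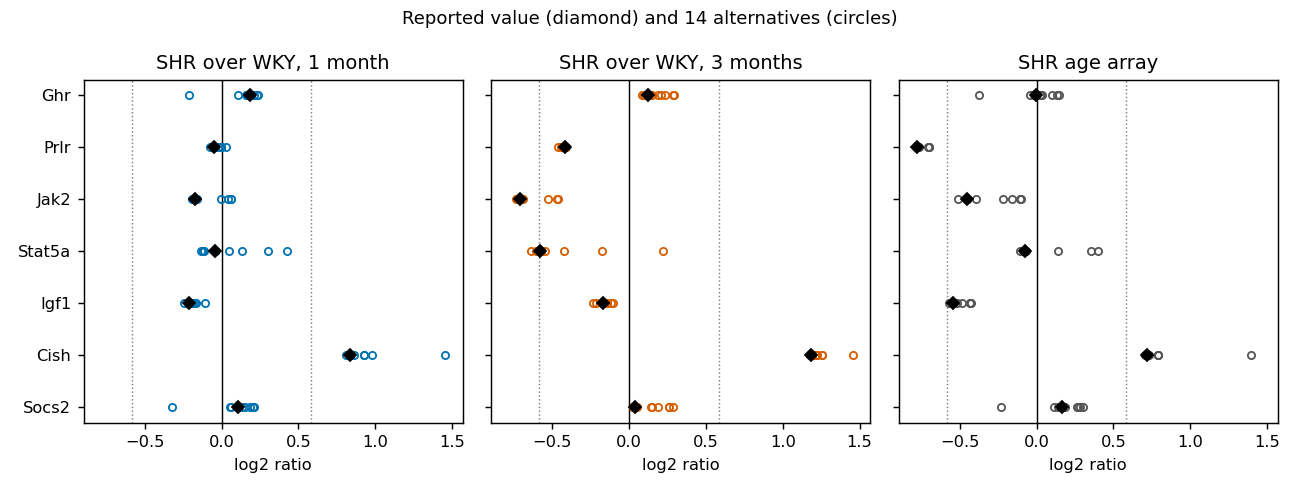
Log2 ratio (x axis) of each member on the 3 arrays as reported (diamond) and under 14 alternative settings (circles); dotted lines mark 1.5-fold. Cish stays above 1.5-fold on all 3 arrays and Prlr below on the SHR age array, while at 3 months Jak2 and Stat5a both cross the line and Stat5a also crosses 0.

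Genes whose 3 ratios lay nearest to those of a member were found by Euclidean distance over the 3 arrays among 4257 named genes above background in both channels. Nearest to Cish were Aldh1l1 at a distance of 0.34, with ratios of 0.55, 1.06 and 0.86, Camk2d at 0.34 and Mre11 at 0.46. Nearest to Jak2 were Epha7 at 0.068, the probe that the file names LC-PTP at 0.12, and Pthlh at 0.15. Nearest to Prlr were Nln at 0.050, Bpifa2f at 0.058 and Dpysl5 at 0.058. Jak2 and Prlr thus had other genes nearly on top of them, whereas the gene nearest to Cish was 0.34 away. Cish had the highest ratio of all genes on both strain arrays, so a distant nearest gene follows from those same ratios.

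The wider pathway was described through 6 lists, whose counts stand beside the 2.62%, 2.08% and 7.47% of all genes past 1.5-fold on the 3 arrays. At these shares a list of this size holds few or no such genes, so the counts of 0 say nothing particular of a list. Among 16 measured of 18 listed genes of hormones and receptors around growth hormone and prolactin, 0 were past 1.5-fold on the strain arrays, and 2 were lower on the SHR age array, Prlr and ghrelin (Ghrl), the stomach hormone that releases growth hormone, at -0.76. Somatostatin (Sst), which restrains growth hormone release, had -0.54, -0.31 and -0.55, and its receptor Sstr1 -0.29, -0.43 and -0.15. Of 16 measured of 25 listed kinases, STATs and adaptors, Jak2 at 3 months was the only gene past 1.5-fold on any array. The JAK2 adaptors Sh2b1 and Sh2b2 had 0.33 and 0.26 at 1 month, 0.05 and 0.22 at 3 months, and 0.33 and 0.39 on the SHR age array. Of 12 measured of 17 listed SOCS proteins and phosphatases, Cish alone was past 1.5-fold, on all 3 arrays. Socs1 and Socs3, which inhibit cytokine signalling, had strain ratios of -0.02 and 0.12 at 1 month and 0.05 and -0.18 at 3 months.

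Of 12 measured of 14 listed genes of the insulin-like growth factor axis, 0 were past 1.5-fold on any array. Igf1r, the receptor of IGF1, had -0.28, -0.19 and -0.06, and Igfals, which holds IGF1 in large complexes in the blood, -0.16, -0.18 and -0.32. Igf2, a growth factor of fetal life, had 0.38, 0.11 and 0.28, and the insulin receptor Insr 0.48 on the SHR age array. The binding protein Igfbp5 had 0.03, -0.25 and -0.26, and the probe of the insulin gene Ins1 0.05, -0.45 and 0.05. Of 13 measured of 17 listed liver transcription factors 0 were past 1.5-fold. Foxa3 had 0.44, 0.42 and 0.29, Cebpa -0.25, -0.27 and -0.12, and the corepressor Nr0b2 0.05, 0.37 and -0.33. The growth-response genes Egr1 and Myc had 0.22 and 0.22 at 1 month, 0.17 and -0.29 at 3 months, and 0.39 and -0.38 on the SHR age array.

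Of 23 measured of 28 listed genes known as STAT5 targets or as set by growth hormone in rat liver, 3 were lower and 0 higher at 1 month, 2 lower and 0 higher at 3 months, and 3 lower and 1 higher on the SHR age array. Their median was -0.22, -0.10 and -0.09, with 18, 18 and 15 below 0. Calls over all genes were also mostly lower, 137 lower and 11 higher at 1 month, 84 and 33 at 3 months, and 305 and 117 on the SHR age array, while 47.5%, 47.0% and 48.8% of all genes lay above 0. Cyp2c7, a cytochrome P450 higher in female rat liver, had -0.71, -0.61 and -0.76. LOC259245, an alpha-2u globulin, a family abundant in male rat liver, had -1.23 at 1 month, -0.12 at 3 months and 1.27 on the SHR age array. Serpina1, a protease inhibitor that is also among the hepatocyte markers below, had -0.71 at 1 month, Cited2, a transcriptional coregulator, -0.85 at 3 months and -1.15 on the SHR age array, and Akr1d1, an enzyme of bile acid synthesis, -0.75 on the SHR age array. The male-specific Cyp2c11 had -0.22, -0.09 and 0.12.

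**Figure D5:**
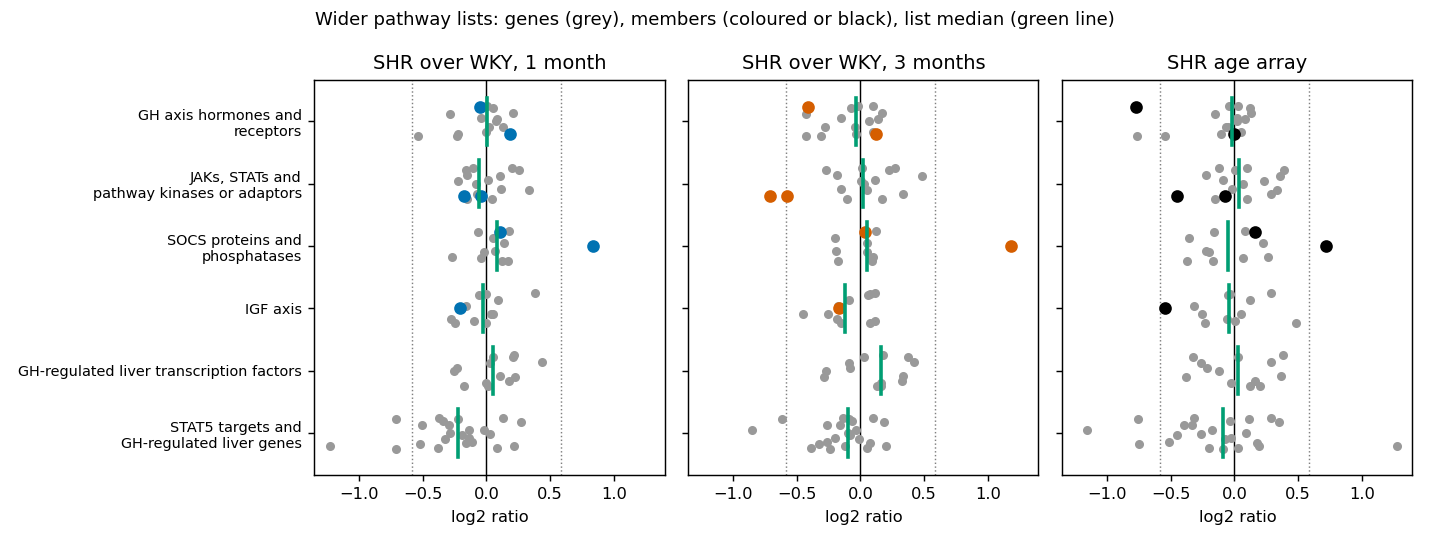
Log2 ratio (x axis) of each measured gene of the 6 wider lists (rows) on the 3 arrays; grey points are genes, coloured or black points the members, green lines list medians and dotted lines 1.5-fold. Cish stands alone in its row, and the STAT5 targets and growth hormone regulated genes spread to lower values, with medians of -0.22, -0.10 and -0.09.

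The tissue label was checked with cell type markers. All 10 hepatocyte markers were above background in both channels on every array, with medians of 0.06, -0.11 and -0.15, and 4, 5 and 7 of them lay below 0. They ran from albumin (Alb), with -1.01 at 3 months and -1.10 on the SHR age array, to the amino acid enzyme Tat, with 0.38 and 0.49. Stellate cell markers had medians of -0.28, -0.36 and -0.31 over 5 genes, all of them below 0 at 1 month and 4 on each of the other arrays. The Kupffer cell marker Clec4f had -0.28, -0.46 and -0.29, and 4 lymphocyte and natural killer cell markers had medians of -0.20, -0.04 and -0.27. The endothelial marker Kdr went the other way, with 0.09, 0.13 and 0.07. The part of any of these cells in the low ratios of Jak2 and Prlr was not tested. Markers that liver should lack were also above background, 3 of 3 for pituitary, prolactin among them, and 3 of 3 for neurons. On these arrays a signal above background therefore did not set liver genes apart, and the same holds for the members.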

How the data were processed

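Per the file headers, the deposited scanner files hold for each spot and channel the mean raw intensity, local background intensity and a net intensity, and a ratio of net intensities. The net intensity of the second channel had been adjusted by the authors, by an amount that differed between probes. The alternatives that use the authors' values carry this adjustment. Log2 values of the authors were deposited in a table of their own without stated scale, centring or direction; they lay near log2 of the second over the first net intensity, with medians of 0.0028, 0.0225 and 0.0202. The sources used here do not name the quantification software.

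Raw intensities were corrected for background with normexp (offset 50, limma 3.58.1, R 4.3.3) and ratios were normalized within each array by loess (span 0.3) with empty spots at weight 0. Before loess the median log2 ratios were -0.51, -0.36 and -0.65. The curve that loess removed varied with brightness, so a ratio is relative to genes of like brightness. Spots had to exceed background by 2 SD in at least 1 channel. The spots of each probe were averaged, and a gene was read by its brightest probe, for Stat5a that of the spliced form. Names came from RefSeq by accession for 2728 of 5690 probes, by current symbol for 1050 and by former symbol for 521. Intensity over background limits precision, and 1 array per comparison allows no p-value. The pipeline was tested on simulated data. Python 3.11.15, numpy 2.4.6, pandas 2.3.3 and matplotlib 3.10.9 did the rest.

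The members and lists were chosen with earlier results of these data known. All 7 members were named, and from each wider list the genes past 1.5-fold on any array, or otherwise the 2 furthest from 0 on each array. The 3 nearest genes are given for Cish, Jak2 and Prlr. Onecut1 is in 2 lists. Alternatives changed background, normalization, filter, probe and spot. Albumin, Tat, Stat5b, Socs1, Socs3, Igfals and Cyp2c11 were named after their values were seen. A withheld item is not reported here.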

Additional observations from a re-analysis of the deposited data

Results flagged for a closer look

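A family of probes outside the comparisons gave signal. Of 13 probes described as prolactin-like or prolactin-related proteins, ligands made mainly by the placenta and decidua, 8 were brighter in both channels on every array than all 512 empty spots of the last subgrid row. Their mean raw intensity in the first column started at 712, 763 and 584 on the 3 arrays and reached 31136, 31596 and 30565. The highest empty spot read 87.0, 447 and 64.5. Their log2 ratios ran from -0.48 to 0.29 at 1 month, from -0.52 to 0.39 at 3 months and from -0.56 to -0.01 on the SHR age array. The family was picked after its values were seen.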

How the results depend on the processing

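Of 28 member ratios and differences, 16 kept their sign in all 14 alternatives, 13 planned and 1 added after the data were seen, and 0 past 1.5-fold changed sign. Ranges over the alternatives were 0.81 to 1.46, 1.18 to 1.46 and 0.70 to 1.39 for Cish on the 1-month, 3-month and SHR age arrays, and Jak2 at 3 months was past 1.5-fold in 11 of 14. Jak2 fell under it with subgrid loess, the authors' log2 values and their net intensities. The filter settings moved no member ratio and the probe settings moved only those of Stat5a. In these a kept sign or call was therefore fixed in advance for the other members. The median of the members at 1 month was 0.043 with loess within each subgrid, 0.062 with the authors' log2 values and 0.062 with their net intensities, 0.11 with the mean over probes, 0.052 with the second spot only and 0.11 with the other Stat5a probe. At 3 months it was -0.12 with loess within each subgrid, -0.24 and -0.10 with the first or second spot only, and 0.037 with the other Stat5a probe. On the SHR age array it was -0.23 with median centring and -0.0032 with the mean over probes and with the other Stat5a probe. The median of the 3-month minus 1-month differences was 0.014 without background correction, 0.050 with plain subtraction, -0.15 with normexp at offset 0, 0.037 without spots of bright background, 0.019 with the authors' log2 values and 0.023 with their net intensities. The cause of these shifts was not tested.

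The number of all genes at least 1.5-fold apart at 1 month was 148, and 1012 with median centring and 269 with the authors' log2 values. At 3 months it was 117, and 566 with median centring, 395 with plain subtraction, 385 with the authors' log2 values, 322 with their net intensities, 299 without background correction and 244 without bright background. On the SHR age array it was 422, and 1443 with median centring. For the change with age it was 159, and 591 with median centring and 241 with plain subtraction. No paired analysis was possible because each comparison rests on 1 array. Low intensity over background limits Socs2 and Ghr most.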
